A study of Mus musculus with 13 samples.

Results

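Transcripts of 37 Wnt pathway genes were followed through spontaneous immortalization of mouse embryonic fibroblasts (MEFs), among the 55487 gene IDs counted in the series. The genes were listed by symbol and role, with earlier results of these data known, and each symbol matched 1 Ensembl gene ID that both deposited count tables hold. By role they were 9 Wnt ligands, 5 secreted ligand-binding antagonists, 3 Dkk proteins, 8 frizzled receptors, 2 coreceptors, 3 R-spondins with the receptor Lgr5, 2 nuclear effectors and 4 feedback targets.

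In the wild-type (WT) set, primary MEFs were taken from separate embryos. Primary cells were passaged to senescence and kept in 20% fetal calf serum until colonies grew out. Immortalized lines were then expanded in 10% serum, the percentage used for primary cells. The WT set held primary clones 3, 4 and 5 and 1 line from each. A further 7 libraries were labelled Prkd3-/- and came from primary clones 13, 14 and 15 and from lines 13, 13a, 14 and 15, of which line 13a was set against primary clone 13 by its number. The libraries of each label came as a separate deposited set of counts. Genotype and deposited set therefore cannot be told apart where levels are compared between labels. Each line had 1 library, so n counts lines, and passages, culture time and outgrowth of a few cells cannot be told apart from immortalization. In bulk RNA, fewer cells of a type and less RNA per cell cannot be told apart either.

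Wnt proteins are secreted lipid-modified ligands that bind frizzled receptors together with the coreceptors Lrp5 and Lrp6. Receptor engagement stabilizes beta-catenin, which enters the nucleus and works with TCF/LEF factors on target genes, while Wnt5a is best known for beta-catenin-independent signalling. Sfrp proteins and Wif1 bind the ligands, Dkk1 and Dkk2 bind the coreceptors, R-spondins keep frizzled receptors at the surface through Lgr receptors, and Axin2, Notum, Nkd1 and Nkd2 are targets that restrain the pathway. Mesenchymal cells, embryonic fibroblasts included, are a rich source of these secreted factors.

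Library totals were 55436367 to 90654323 counts in WT and 35273408 to 100441756 in the Prkd3-/- label, and 3 counts, taken as the floor, equalled 0.0277 to 0.0842 CPM, the counts scaled by library size and TMM factor. The floor and the counting intervals given here cover counting error only. Prkd3 itself was still counted under the Prkd3-/- label, at 33.6 to 61.0 CPM against 69.2 to 93.8 CPM in WT, with no overlap, so the genotype is used here as a label. All 10 fibroblast markers were present in every group, although Dcn was at 0.661, 0.382 and 0.702 CPM in WT line 3, line 13 and line 15 and at 4.04 CPM or more in the other libraries. Lum was at 0.0483 (3 counts), 1.57 and 0.297 CPM in these lines and at 6.15 CPM or more in the other libraries. Thy1 was lowest in line 13, at 4.85 CPM, and Postn in WT line 3, at 17.0 CPM. Col1a1, Col1a2 and Vim were at 2812 CPM or more in every library. The summed level of 10 macrophage markers was 627.3 to 653.4 CPM in WT primary libraries, 30.5 to 91.3 in WT lines, 87.8, 922.4 and 199.2 in primary libraries 13, 14 and 15, and 10.2 to 155.8 in the lines labelled Prkd3-/-; none of the 10 was at 0 throughout a group. Other summed markers were also lower in WT lines than in WT primary libraries, at 0.371 to 2.004 against 11.6 to 16.4 CPM for 6 endothelial genes. In the primary libraries that sum was mostly Kdr and Tek, while Pecam1, Cdh5 and Tie1 were scarce and did not separate the states. The 5 skeletal muscle genes summed to 0.728 to 7.09 against 22.5 to 25.96 CPM, nearly all of it Des. Myf5, Myod1, Myog and Pax7 were at 0 in all WT lines but had at most 7 counts in any WT primary library. The 8 epithelial genes summed to 0.258 to 0.660 against 2.46 to 2.79 CPM. Among them Krt14 was at 0 in all WT lines but had at most 5 counts in any WT primary library. The part of these cell types in the results was not tested.

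Of the 8 secreted antagonists, Sfrp2, Wif1 and Dkk2 lay lower in all 3 immortalized WT lines than in all 3 primary WT libraries. Sfrp1, Frzb, Sfrp4 and Dkk3 did not. Dkk1 also lay lower in all 3, but it had at most 11 counts in any WT library and did not pass the filter on low counts. The receptor Fzd7 lay higher in all 3 WT lines. None of the 36 members that passed the filter on low counts reached an adjusted p-value under 0.01 with a |Log2FC| of at least 1 in edgeR's quasi-likelihood test, whereas 361 of 19836 genes did (1.82%), 12 of them higher and 349 lower. At an unadjusted p under 0.05 edgeR had 8 members (22.2%), 2 higher and 6 lower, close to the 19.7% of all genes (8.26% higher, 11.4% lower). DESeq2 had 12 of 34 members at that threshold (35.3%), 4 higher and 8 lower, beside 14.6% of all genes. With the clone as a block, and in a joint fit of all libraries, edgeR called 0 members and 0 of all genes in WT. The block fit had 8 members (22.2%) at an unadjusted p under 0.05, with Fzd4 in place of Lef1, beside 14% of all genes. The joint fit had 5 members (13.9%) at that threshold, beside 10.4% of all genes. With the adjusted p-value threshold relaxed to 0.05 and the same limit on |Log2FC|, edgeR had 2 members, Sfrp2 and Wif1 (4.38% of all genes), while Fzd7 met the p-value threshold with a smaller Log2FC. DESeq2 called the same 2 members at the stricter thresholds (4.08% of all genes). At the relaxed threshold it had 6 members, Axin2, Dkk1, Lef1, Sfrp2, Wif1 and Wnt2, beside 1738 of 33349 genes. Counted by overlap alone, 13 of 36 members lay lower in every WT line than in every primary WT library, against 17.3% of all genes, and Fzd7 alone lay higher, against 14%.

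**Figure D1:**
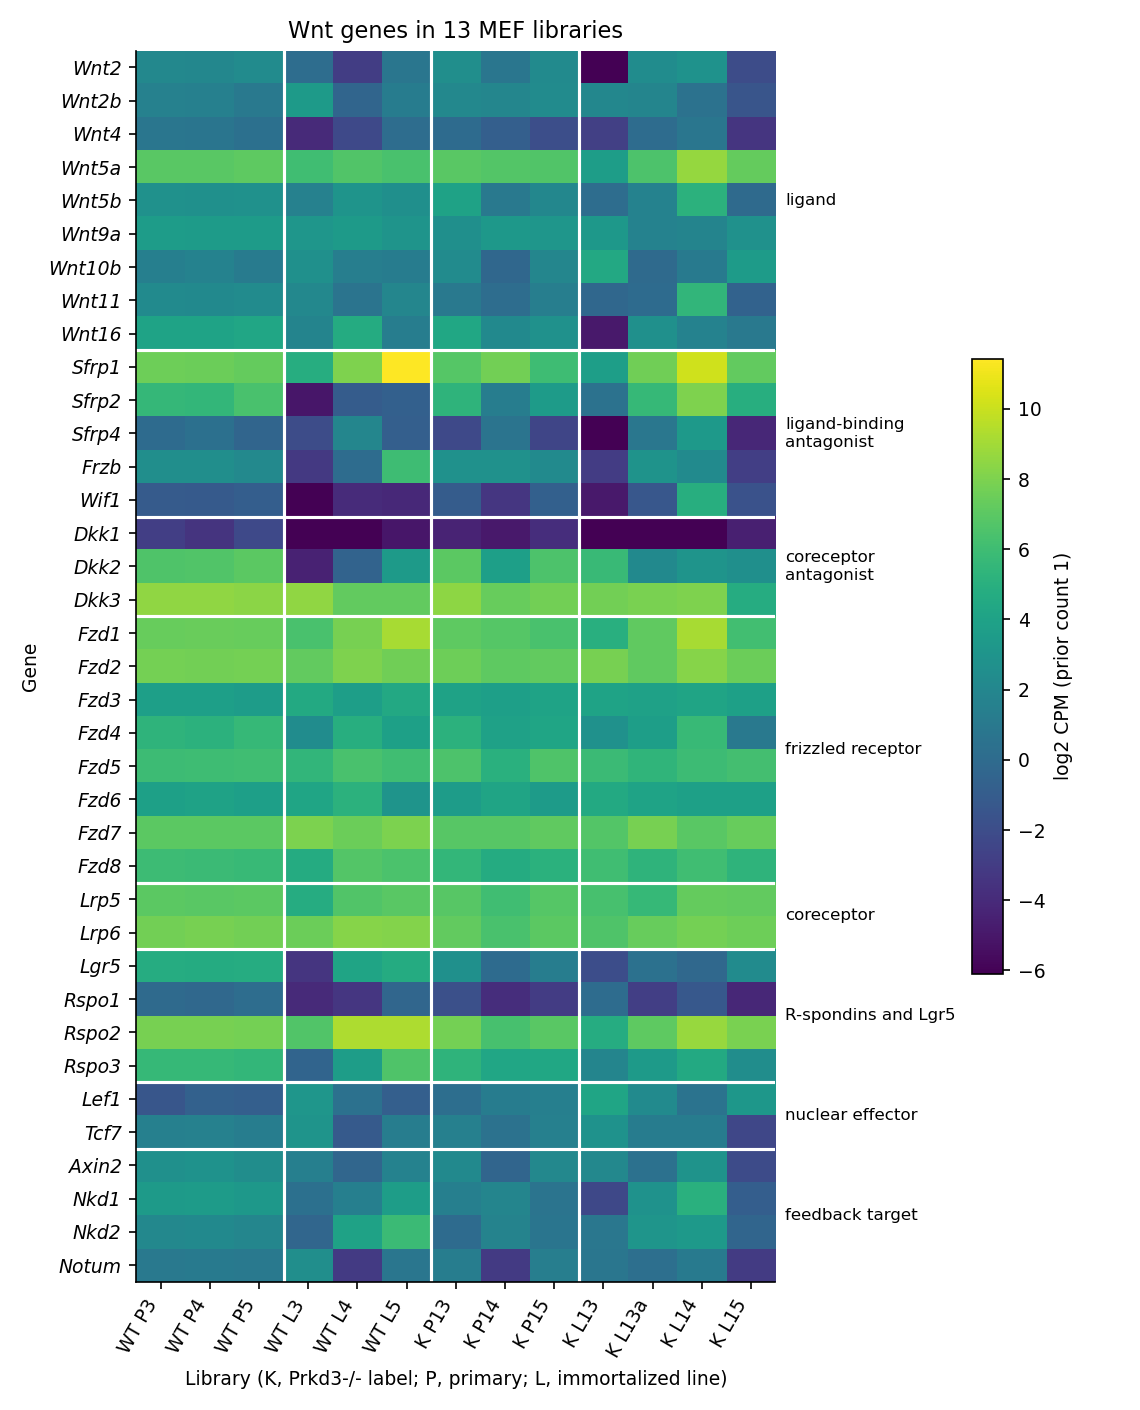
Log2 CPM (prior count 1, colour scale) of the 37 Wnt genes (rows, by role) in the 13 libraries (columns; K, Prkd3-/- label; P, primary; L, immortalized line). The 3 WT primary columns look alike, while neighbouring columns of immortalized lines differ in many rows, as for Sfrp1, Sfrp2, Wif1 and Nkd2.

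The lines differed from each other far more than the primary libraries did. The standard deviation (SD) of log2 CPM among the 3 WT lines exceeded that among the 3 WT primary libraries for 36 of 36 members, beside 87.1% of 21197 genes. The median SD over members was 0.12 in WT primary libraries and 1.45 in WT lines, where over all genes it was 0.09 and 0.35. In the Prkd3-/- libraries the SD was larger among lines for 30 of 36 members (82.1% of all genes), with medians of 0.66 in primary libraries and 1.83 in lines, and 0.27 and 0.56 over all genes. The 6 exceptions were Dkk2, Fzd3, Fzd5, Fzd6, Fzd8 and Notum.

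Secreted ligand-binding antagonists, which keep Wnt proteins from their receptors, differed widely between libraries. Sfrp2 (chr3:83766321-83774316, GRCm38, plus strand) measured 46.8, 45.1 and 82.4 CPM in WT primary libraries 3, 4 and 5 and 0.0161, 0.474 and 0.581 CPM in WT lines 3, 4 and 5. Every WT line lay far below every WT primary library, with a Log2FC of -7.34 ± 0.97 (SE) and an adjusted p-value of 0.0133 in edgeR, and of 2.63e-17 in DESeq2. The adjusted p-value in edgeR was 0.0683 with the clone as a block and 0.00299 without WT line 3, which had 1 Sfrp2 count. Over the 14 alternatives it ran from 2.63e-17 in DESeq2 to 0.284. Of the exon bases of Sfrp2, 16.1% are shared with a gene on the opposite strand, whose reads cannot be told apart.

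Under the Prkd3-/- label Sfrp2 did not follow that pattern. It measured 38.5, 2.46 and 11.4 CPM in primary libraries 13, 14 and 15 and 1.43, 50.8, 264.1 and 30.0 CPM in lines 13, 13a, 14 and 15. The states overlapped, lines 13a, 14 and 15 each exceeded their own primary library, and the Log2FC was 2.32 ± 1.55 with an adjusted p-value of 0.843 in edgeR. It was 0.65 without line 14 and 3.64 without primary library 13. The difference of the state effect between the genotypes was 9.65 ± 2.25 on the log2 scale, with an unadjusted p of 0.00122 and an adjusted p-value of 1 in edgeR over 21197 genes. DESeq2 gave that difference an adjusted p-value of 0.000342.

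Wif1, a different type of secreted Wnt-binding protein (chr10:121033960-121100650, plus strand), was scarce except in 1 library. It measured 0.460, 0.436 and 0.536 CPM in WT primary libraries, and 0, 0.0508 and 0.0459 CPM in the WT lines, all at or under 3 counts. Summed counts were 100 in the primary libraries and 6 in the lines, a ratio of 0.0685 after scaling (95% exact interval 0.0245 to 0.154), and the adjusted p-value was 0.0350 in edgeR, 6.30e-06 in DESeq2 and 0.169 in edgeR with the clone as a block (6.30e-06 to 0.629 over the 14 alternatives). In cells labelled Prkd3-/- Wif1 measured 0.484, 0.0832 and 0.589 CPM in primary libraries and 0.0191, 0.384, 29.2 and 0.297 CPM in lines 13, 13a, 14 and 15. Line 14 stood far above every other library, and the edgeR Log2FC of 4.30 ± 2.31 (adjusted p-value 0.815) became -0.67 without it (adjusted p-value 0.851). The difference between genotypes was 8.12 ± 2.86 in edgeR, with an unadjusted p of 0.0157 and an adjusted p-value of 1.

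Sfrp1, a close relative of Sfrp2, gave the highest level of the Sfrp family per transcript length (RPKM, the CPM divided by exon length in kilobases) in 12 of 13 libraries. In CPM it measured 186.4, 182.6 and 155.5 in WT primary libraries and 27.9, 264.2 and 2765 in WT lines 3, 4 and 5. WT line 3 lay below and WT lines 4 and 5 above every WT primary library, so the lines differed among themselves by 99.1-fold. Among libraries labelled Prkd3-/- it measured 111.9, 209.5 and 62.5 CPM in primary libraries and 13.2, 201.3, 1122 and 146.0 CPM in lines 13, 13a, 14 and 15. Line 13 was the lowest and line 14 the highest of the 7. Sfrp2 made up 32.3% to 50.7% of the summed Sfrp family RPKM in WT primary libraries, 0.0414% to 0.356% in WT lines, 2.22% to 39.2% in primary libraries labelled Prkd3-/- and 17.8% to 32.6% in their lines.

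Frzb, another frizzled-related antagonist, measured 6.03, 5.78 and 4.52 CPM in WT primary libraries and 0.0967, 1.05 and 62.8 CPM in WT lines 3, 4 and 5, which lay on both sides of the primary libraries. Under the Prkd3-/- label it measured 6.71, 6.73 and 4.88 CPM in primary libraries and 0.115, 7.50, 4.85 and 0.121 CPM in the 4 lines, with lines 13 and 15 low. Sfrp4 was scarce in WT, at 1.03, 1.31 and 0.769 CPM in primary libraries and 0.226, 3.78 and 0.551 CPM in lines, and reached 10.1 CPM in line 14. No direction was shared by the lines for either gene.

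**Figure D2:**
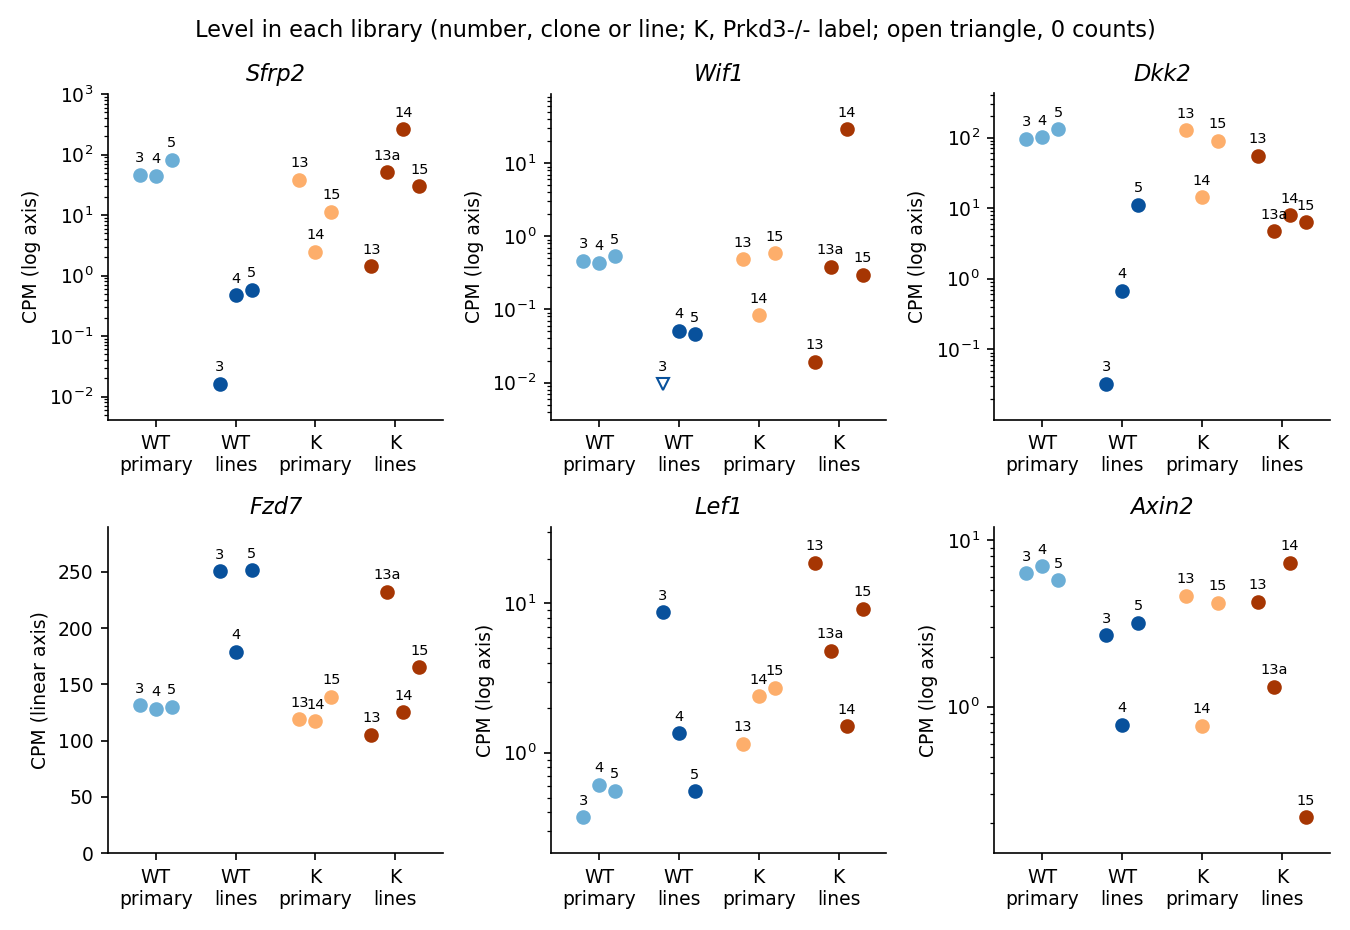
CPM of 6 Wnt genes in each library, by genotype label and state (K, Prkd3-/- label). Numbers give the clone or line, axes are logarithmic except for Fzd7, and an open triangle below the lowest value marks 0 counts; Sfrp2, Wif1 and Dkk2 lie below all WT primary points in all WT lines, and Fzd7 above them.

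The Dkk family was mainly represented by Dkk2, which acts on the coreceptors, and Dkk3, a divergent member not known to do so. Dkk2 (chr3:132085292-132180304, plus strand) measured 96.4, 100.8 and 131.3 CPM in WT primary libraries and 0.0322, 0.677 and 11.1 CPM in WT lines 3, 4 and 5, of which line 3 had 2 counts. All 3 lines were lower, by amounts that differed between them, and the Log2FC was -4.80 ± 1.64 with an unadjusted p of 0.0276 and an adjusted p-value of 0.189 in edgeR, while DESeq2 gave no adjusted p-value. The Log2FC depended on the lines used, at -8.28 without line 5 (adjusted p-value 0.0124 in edgeR) and -4.21 without line 3 (0.0893). In the Prkd3-/- libraries it measured 126.5, 14.1 and 90.7 CPM in primary libraries 13, 14 and 15 and 55.3, 4.71, 7.90 and 6.29 CPM in lines 13, 13a, 14 and 15. Each line lay below its own primary library, although the states overlapped through primary library 14, and the Log2FC was -2.08 ± 1.04 with an adjusted p-value of 0.793 in edgeR. Dkk2 was the only one of 36 members that was lower in all 7 lines than in the primary library of the same clone, beside 5.1% of 21197 genes, and no member was higher in all 7, beside 3.03%.

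Dkk3 had the highest median RPKM of the 37 genes. It measured 364.2, 367.3 and 328.0 CPM in WT primary libraries and 367.2, 147.4 and 149.6 CPM in WT lines 3, 4 and 5, so line 3 matched the primary level and lines 4 and 5 lay below it. Without WT line 3 its Log2FC was -1.25 with an adjusted p-value of 0.00323 in edgeR, against -0.68 and 0.405 with all libraries. In cells labelled Prkd3-/- Dkk3 measured 356.1, 165.6 and 204.5 CPM in primary libraries and 206.4, 238.9, 263.1 and 26.6 CPM in lines, of which line 15 was lowest. Dkk1 did not pass the filter in either genotype: its 26 counts in WT primary libraries and 1 in WT lines gave a ratio of 0.0439 (95% exact interval 0.00107 to 0.267), and each library labelled Prkd3-/- had at most 3 counts. Without that filter the adjusted p-value of Dkk1 in WT was 0.0264 in DESeq2 and 0.0947 in edgeR.

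The sequences before the start sites of 4 members are shown because Sfrp2 and Dkk2 were lower and Fzd7 was higher in all WT lines, and because Axin2 is the standard target of the pathway. They are the 250 bases before the RefSeq start (GRCm38.p6), 5′ to 3′ in the direction of the gene, with each CG dinucleotide in capitals. Their positions are chr3:83766071-83766320 for Sfrp2, chr3:132085042-132085291 for Dkk2, chr1:59481897-59482146 for Fzd7 and chr11:108920099-108920348 for Axin2, all on the plus strand.
Sfrp2: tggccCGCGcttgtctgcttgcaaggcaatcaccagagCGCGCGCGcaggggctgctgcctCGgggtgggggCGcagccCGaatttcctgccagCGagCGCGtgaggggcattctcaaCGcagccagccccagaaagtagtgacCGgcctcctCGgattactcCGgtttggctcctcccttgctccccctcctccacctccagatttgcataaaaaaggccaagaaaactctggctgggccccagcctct
Dkk2: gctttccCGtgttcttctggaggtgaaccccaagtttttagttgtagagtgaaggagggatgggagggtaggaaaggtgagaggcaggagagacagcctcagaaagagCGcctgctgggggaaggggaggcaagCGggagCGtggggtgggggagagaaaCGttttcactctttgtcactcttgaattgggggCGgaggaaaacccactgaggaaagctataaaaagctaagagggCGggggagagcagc
Fzd7: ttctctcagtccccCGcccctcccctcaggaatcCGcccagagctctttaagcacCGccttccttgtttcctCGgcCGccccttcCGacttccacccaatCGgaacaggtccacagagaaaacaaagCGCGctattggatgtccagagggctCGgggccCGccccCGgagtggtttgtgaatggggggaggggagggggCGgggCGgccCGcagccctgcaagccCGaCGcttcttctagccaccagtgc
Axin2: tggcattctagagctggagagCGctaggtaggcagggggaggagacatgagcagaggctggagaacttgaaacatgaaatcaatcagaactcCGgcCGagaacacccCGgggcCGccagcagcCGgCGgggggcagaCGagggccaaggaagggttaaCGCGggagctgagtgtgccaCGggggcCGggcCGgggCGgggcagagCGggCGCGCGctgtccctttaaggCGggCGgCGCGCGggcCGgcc
These windows hold 16, 7, 17 and 24 CG dinucleotides in that order, against a median of 6 over 32851 promoters of that length. A start was matched for 23 of the 37 members, with 6 to 48 CG and a median of 20. The 7-letter cores CTTTGAT and CTTTGAA, which TCF/LEF factors are known to bind, were searched on both strands. CTTTGAT occurred before Wnt11 alone and CTTTGAA before Dkk1 alone, and 3.21% and 4.46% of all promoters held them; neither was among the letters printed above.

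Among the ligands, Wnt5a gave the largest share of Wnt transcripts in 10 of 13 libraries, with 11.9% to 74.0% of the summed RPKM of 19 Wnt genes. It measured 122.3, 124.8 and 133.2 CPM in WT primary libraries and 65.5, 101.1 and 84.6 CPM in WT lines 3, 4 and 5. All 3 lines were lower, with a Log2FC of -0.60 ± 0.17, an unadjusted p of 0.0118 and an adjusted p-value of 0.124 in edgeR. Among libraries labelled Prkd3-/- it measured 125.7, 106.4 and 103.8 CPM in primary libraries and 12.7, 92.0, 413.8 and 152.8 CPM in lines 13, 13a, 14 and 15, with line 13 lowest and line 14 highest of all 13 libraries.

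Wnt2, a ligand of mesenchymal cells, measured 4.17, 4.0 and 5.11 CPM in WT primary libraries and 1.10, 0.119 and 1.70 CPM in WT lines. The lines did not overlap the primary libraries, and the Log2FC was -2.18 ± 0.82 with an unadjusted p of 0.0386 and an adjusted p-value of 0.222 in edgeR. Under the Prkd3-/- label it measured 5.77, 1.69 and 4.88 CPM in primary libraries and 0, 5.29, 7.07 and 0.229 CPM in the 4 lines. It was at 0 counts in line 13 and highest in line 14. Wnt4, Wnt9a and Wnt11 were also lower in every WT line than in every WT primary library, but none had an unadjusted p under 0.05 in edgeR.

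The remaining ligands stood out in different lines. Wnt10b, a ligand known for beta-catenin-dependent signalling, measured 2.75, 3.14 and 2.23 CPM in WT primary libraries and 6.56, 2.59 and 2.34 CPM in WT lines, and 5.20, 0.842 and 3.90 CPM in primary libraries and 22.7, 0.946, 2.11 and 11.4 CPM in lines labelled Prkd3-/-. In line 13 it was the most abundant Wnt transcript, with 48.9% of the summed RPKM. Wnt16 measured 16.7, 16.4 and 19.6 CPM in WT primary libraries and 3.50, 25.6 and 2.54 CPM in WT lines, where line 4 stood above and lines 3 and 5 below; without line 4 its Log2FC was -2.54 with an adjusted p-value of 0.00657 in edgeR. Wnt11, which acts in cell movement, was at 0.661 to 4.21 CPM in the other 6 lines and at 42.7 CPM in line 14, and Wnt5b was at 0.958 to 7.99 CPM in the other 6 lines and at 35.4 CPM in line 14. Wnt2b was highest in WT line 3 at 11.0 CPM and lowest in line 15 at 0.351 CPM.

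Wnt10a, which is not one of the 37 genes, gave the largest share in WT lines 3 and 5, with 35.6% and 43.9% of the summed Wnt RPKM. Its share was 16.4% to 18.7% in WT primary libraries, 2.41% in WT line 4 and 0.0867% to 4.88% in all libraries labelled Prkd3-/-. The summed Wnt RPKM of the 13 libraries lay between 13.6 in line 13 and 87.7 in line 14. In the WT lines the sum was 27.6 to 37.2, below the 38.8 to 39.4 of WT primary libraries, while the gene with the largest share differed between them.

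**Figure D3:**
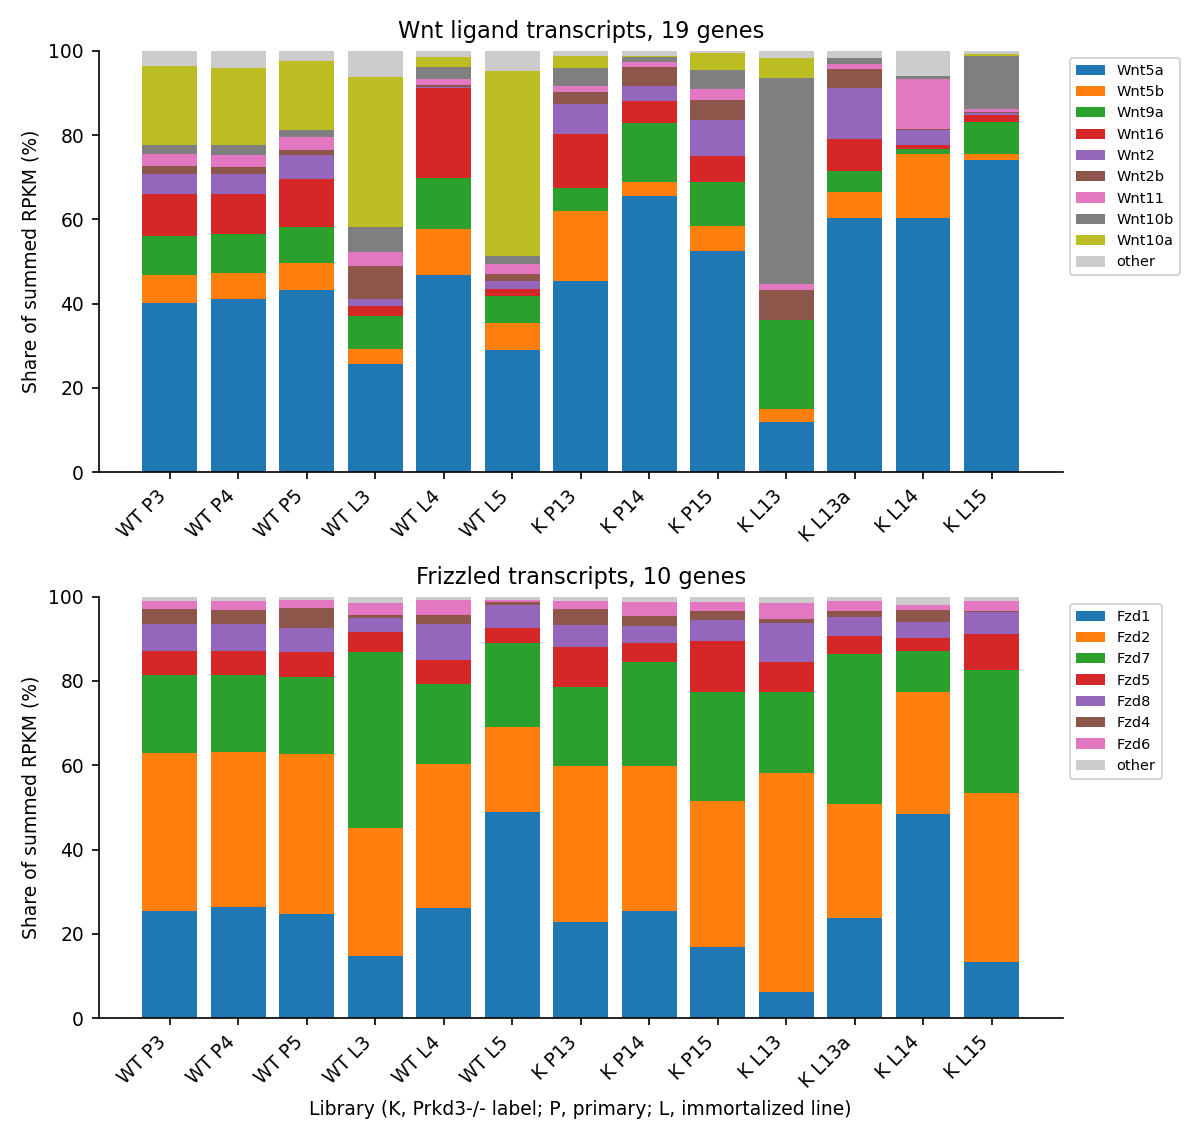
Share (%) of summed RPKM taken by each Wnt ligand gene (top, 19 genes) and each frizzled gene (bottom, 10 genes) in the 13 libraries (K, Prkd3-/- label; P, primary; L, immortalized line). Wnt5a took 40.2% to 43.2% in WT primary libraries and 11.9% in line 13, and Fzd1, Fzd2 and Fzd7 together filled most of each lower bar.

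Frizzled receptors, the membrane proteins that bind Wnt, were mainly Fzd1, Fzd2 and Fzd7 by RPKM. Fzd7 (chr1:59482424-59486955, plus strand) measured 131.6, 128.3 and 130.1 CPM in WT primary libraries and 250.8, 178.9 and 251.7 CPM in WT lines 3, 4 and 5. It was the 1 member higher in every WT line than in every WT primary library, with a Log2FC of 0.80 ± 0.15 and an adjusted p-value of 0.0432 in edgeR, 0.000509 in DESeq2 and 0.157 in edgeR with the clone as a block (0.000509 to 0.235 over the 14 alternatives). In the Prkd3-/- libraries it measured 119.0, 117.4 and 139.0 CPM in primary libraries and 105.2, 232.3, 125.4 and 165.1 CPM in lines, which overlapped, with a Log2FC of 0.32 ± 0.29 and an adjusted p-value of 0.869 in edgeR. The difference between genotypes, -0.48 ± 0.35, had an unadjusted p of 0.198 and an adjusted p-value of 1 in edgeR.

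Fzd2 had the largest share of frizzled RPKM in 9 of 13 libraries and stayed between 132.6 and 297.7 CPM. Fzd1 measured 167.2, 172.1 and 162.6 CPM in WT primary libraries and 82.4, 228.8 and 569.4 CPM in WT lines, and 134.6, 111.5 and 83.9 CPM in primary libraries and 30.5, 142.8, 570.8 and 68.9 CPM in lines labelled Prkd3-/-. It led the frizzled genes in WT line 5 and line 14, at 49.0% and 48.4%, and had a share of 6.07% in line 13. Fzd4, which also binds the unrelated ligand Norrin, measured 38.7, 36.4 and 50.1 CPM in WT primary libraries and 5.43, 30.2 and 14.6 CPM in WT lines, with no overlap but an adjusted p-value of 0.297 in edgeR. Fzd3, Fzd5, Fzd6 and Fzd8 ranged over the 13 libraries from 12.2 to 23.8, 33.3 to 98.8, 8.0 to 35.2 and 25.2 to 106.8 CPM. None had an unadjusted p under 0.05 in the edgeR test within either genotype. In WT, Fzd3 had an unadjusted p under 0.05 in the joint edgeR fit of all libraries and in DESeq2.

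The coreceptor Lrp6 measured 212.3, 225.0 and 210.6 CPM in WT primary libraries and 180.2, 310.8 and 285.5 CPM in WT lines, and its relative Lrp5 measured 129.4, 124.0 and 128.7 and 27.1, 101.0 and 120.5 CPM. Lrp5 was lower in every WT line than in every primary library, by much in line 3 and by little in lines 4 and 5, with an adjusted p-value of 0.565 in edgeR. In cells labelled Prkd3-/- Lrp6 ranged from 85.8 to 216.2 CPM and Lrp5 from 50.6 to 156.7 CPM, and the lowest value of Lrp6 and of Lrp5 among the primary libraries was in library 14.

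R-spondins, the secreted enhancers of the Wnt response, were carried by Rspo2, with 71.4% to 98.6% of R-spondin RPKM in each library. Rspo2 measured 227.2, 225.4 and 217.7 CPM in WT primary libraries and 101.2, 623.9 and 613.0 CPM in WT lines 3, 4 and 5. Line 3 lay below and lines 4 and 5 above all primary libraries, and without line 3 the Log2FC was 1.47 with an adjusted p-value of 0.00128 in edgeR, against 1.00 and 0.458 with it. Among libraries labelled Prkd3-/- Rspo2 measured 214.4, 81.5 and 125.3 CPM in primary libraries and 27.5, 132.7, 419.4 and 234.3 CPM in lines, with line 13 lowest and line 14 highest.

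Rspo3 measured 50.2, 50.4 and 46.2 CPM in WT primary libraries and 0.709, 12.4 and 95.7 CPM in WT lines, a 134.9-fold range among lines that enclosed the primary level. Under the Prkd3-/- label it measured 40.0, 19.6 and 20.0 CPM in primary libraries and 3.65, 11.1, 23.0 and 5.71 CPM in lines, with a Log2FC of -1.29 ± 0.63 and an adjusted p-value of 0.790 in edgeR. Rspo1 was scarce, at 0.966, 0.882 and 1.09 CPM in WT primary libraries and 0.0483, 0.0847 and 0.780 CPM in WT lines, all lower; its Log2FC was -1.67 ± 0.97 with an adjusted p-value of 0.412 in edgeR, and -3.85 with 0.00512 without line 5. Lgr5, an R-spondin receptor and stem cell marker, measured 26.8, 25.9 and 26.7 CPM in WT primary libraries and 0.0806, 17.8 and 25.6 CPM in WT lines 3, 4 and 5, so that line 3 was close to the floor, line 4 lay below the primary libraries and line 5 just below them. In the Prkd3-/- libraries it ranged from 0.248 to 6.54 CPM, below the WT primary libraries throughout, where genotype and deposited set cannot be told apart.

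The nuclear effector Lef1, a TCF/LEF factor that is also a target of the pathway (chr3:131110471-131224356, plus strand), was the 1 member with an unadjusted p under 0.05 in edgeR in both genotypes, beside 2.75% of the 19311 genes tested in both. With the clone as a block the unadjusted p in edgeR was 0.180 in WT and 0.179 under the Prkd3-/- label. Lines 13 and 13a, set against the same primary clone, count there as separate libraries. With their counts summed, 0 members were higher at an unadjusted p under 0.05 in edgeR under that label, so Lef1 did not pass. Lef1 measured 0.368, 0.610 and 0.554 CPM in WT primary libraries and 8.73, 1.35 and 0.551 CPM in WT lines 3, 4 and 5. Line 3 was far above the primary libraries and line 5 was inside their range, and the Log2FC was 2.79 ± 1.06 with an unadjusted p of 0.0403 and an adjusted p-value of 0.227 in edgeR, and 0.89 without line 3. In cells labelled Prkd3-/- Lef1 measured 1.15, 2.39 and 2.72 CPM in primary libraries and 18.8, 4.84, 1.5 and 9.19 CPM in lines 13, 13a, 14 and 15. Lines 13, 13a and 15 exceeded all primary libraries while line 14 did not, with a Log2FC of 2.01 ± 0.81, an unadjusted p of 0.0406 and an adjusted p-value of 0.733 in edgeR. Of the exon bases of Lef1, 13.7% are shared with a gene on the opposite strand. Per length, Lef1 made up 0.181% to 13.8% and Tcf7l1, which is outside the 37 genes, 44.7% to 83.4% of TCF/LEF transcripts.

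Axin2, the feedback inhibitor most used as a readout of beta-catenin activity (chr11:108920349-108950783, plus strand), was lower in the WT lines. It measured 6.35, 6.98 and 5.74 CPM in WT primary libraries and 2.69, 0.779 and 3.20 CPM in WT lines 3, 4 and 5. The groups did not overlap, and the Log2FC was -1.52 ± 0.51 with an unadjusted p of 0.0253 and an adjusted p-value of 0.181 in edgeR. Among libraries labelled Prkd3-/- it measured 4.66, 0.768 and 4.21 CPM in primary libraries 13, 14 and 15 and 4.26, 1.32, 7.33 and 0.216 CPM in lines 13, 13a, 14 and 15. These groups overlapped, with primary library 14 and line 15 lowest.

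Axin2 and Notum, a secreted enzyme that inactivates Wnt proteins, had their 3 lowest values of 13 in the same libraries, and so did Tcf7, a TCF/LEF factor. These were WT line 4, primary library 14 and line 15. Notum measured 1.95, 2.06 and 1.97 CPM in WT primary libraries and 5.88, 0.102 and 1.74 CPM in WT lines 3, 4 and 5, and 2.48, 0.102 and 2.64 CPM in primary libraries and 1.70, 1.22, 2.17 and 0.108 CPM in lines labelled Prkd3-/-. Tcf7 measured 2.82, 3.04 and 2.52 CPM in WT primary libraries and 7.67, 0.440 and 2.54 CPM in WT lines, and 2.87, 1.40 and 2.86 CPM in primary libraries and 7.04, 2.40, 2.39 and 0.175 CPM in lines labelled Prkd3-/-. Lef1 shared none of its 3 lowest libraries with them. Of the Notum exon bases, 38.1% are shared with a gene on the opposite strand, and the genes share library and depth in each point, so the coincidence is given as a description. Primary library 14 also had the highest summed macrophage level, while WT line 4 and line 15, at 30.5 and 15.4 CPM, were among the low ones.

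**Figure D4:**
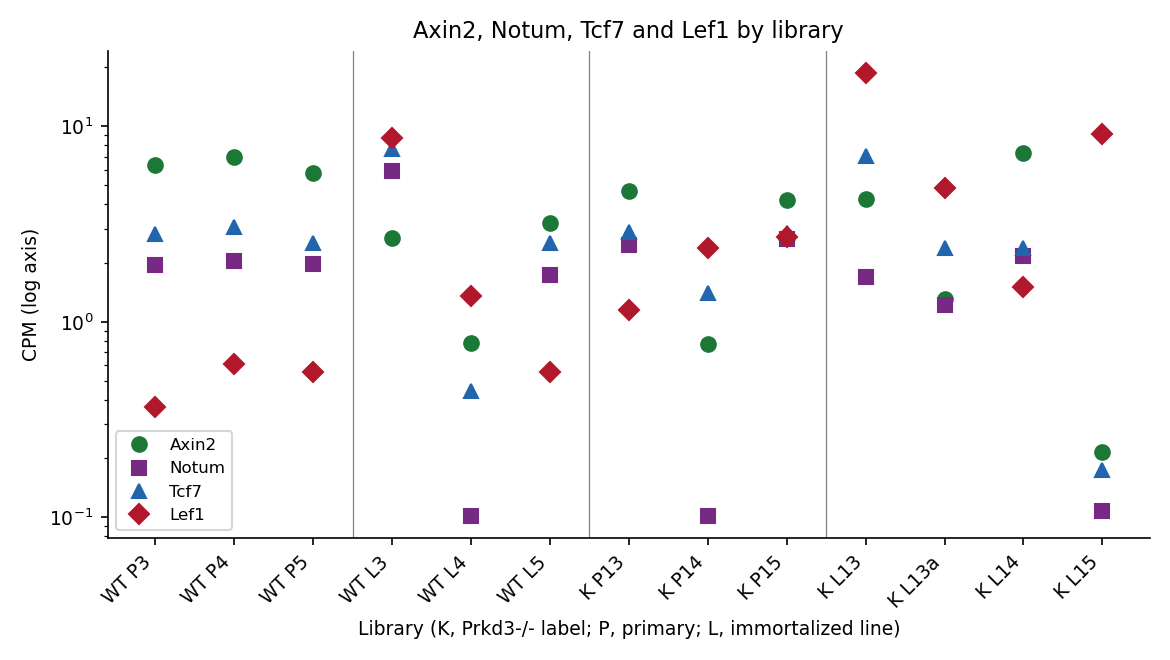
CPM (logarithmic axis) of Axin2, Notum, Tcf7 and Lef1 in the 13 libraries (K, Prkd3-/- label; P, primary; L, immortalized line; vertical lines separate the groups). Axin2, Notum and Tcf7 are lowest together in WT line 4, primary library 14 and line 15, where Lef1 is at 1.35, 2.39 and 9.19 CPM.

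The Nkd proteins, which bind Dishevelled and dampen the signal, each shared 1 of their 3 lowest libraries with Axin2, line 15. Nkd1 measured 11.0, 11.5 and 9.53 CPM in WT primary libraries and 1.26, 2.81 and 12.4 CPM in WT lines, and 2.81, 3.73 and 1.52 CPM in primary libraries and 0.191, 7.24, 32.4 and 0.540 CPM in lines labelled Prkd3-/-. Nkd2 measured 4.26, 4.55 and 3.77 CPM in WT primary libraries and 0.773, 15.7 and 57.0 CPM in WT lines, and 1.01, 3.32 and 1.60 CPM in primary libraries and 1.78, 8.09, 10.6 and 0.756 CPM in lines labelled Prkd3-/-. WT line 3 was the lowest and WT line 5 the highest of the WT libraries for both genes.

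Under the Prkd3-/- label as a whole, edgeR called 0 of 36 members and 0 of 20298 genes (0.0%), and DESeq2 called 0 members beside 0.552% of all genes. At an unadjusted p under 0.05 edgeR had 1 member, Lef1, beside 6.56% of genes, and DESeq2 had 2, beside 6.22%. With the counts of lines 13 and 13a summed, edgeR had 2 members at that threshold, both lower, beside 1798 of 20331 genes. No member separated the 4 lines from the 3 primary libraries, beside 9.44% of genes. For the difference of the state effect between genotypes, edgeR called 0 of 36 members and 0 of 21197 genes (0.0%), with 2 members, Sfrp2 and Wif1, at an unadjusted p under 0.05 beside 3.97% of genes. DESeq2 called 1 member, Sfrp2, beside 0.101% of genes.

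Set against the primary library of its own clone, each line had its own Wnt profile. The median size of the log2 difference over 36 members was 1.71, 1.24 and 0.70 in WT lines 3, 4 and 5, against 0.38, 0.35 and 0.38 over 21197 genes. In WT line 3, 5 members were at least 1 log2 unit higher and 21 at least 1 lower, beside 5.1% and 18.0% of genes. In WT line 4 the counts were 5 and 15, beside 4.8% and 16.1%, and in WT line 5 they were 6 and 7, beside 8.21% and 13.4%. The 13 members without overlap between the WT states were also the ones lower in all 3 lines than in their own primary libraries, beside 21.1% of genes, and Fzd7 was the 1 higher in all 3, beside 18.3%.

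Among the lines labelled Prkd3-/-, the median size was 2.03, 0.97, 1.45 and 1.43 in lines 13, 13a, 14 and 15, against 0.67, 0.37, 0.56 and 0.47 over all genes. Line 14 differed from the others, with 22 members at least 1 log2 unit higher and 2 lower, beside 12.8% and 16.6% of genes. Primary library 14, against which it was set, stood apart from primary libraries 13 and 15 for several of these genes, at 2.46, 0.768 and 0.102 CPM for Sfrp2, Axin2 and Notum, and was the lowest of the 13 libraries for Fzd2, Fzd5, Fzd8, Lrp6 and Wnt10b. Notum in line 14, at 2.17 CPM, was not above its level in primary libraries 13 and 15. Lines 13, 13a and 15 had 4, 4 and 5 members higher and 18, 12 and 18 lower, beside 10.3%, 8.6% and 9.27% of genes higher and 24.5%, 9.07% and 15% lower. Wnt2b, Wnt16 and Dkk2 were lower in all 4 lines than in their own primary libraries, beside 10.2% of genes, and no member was higher in all 4, beside 8.16%. Lines 13 and 13a, both set against primary clone 13, differed in their own values: Sfrp2 was at 1.43 and 50.8 CPM, Sfrp1 at 13.2 and 201.3 CPM, and Dkk2 at 55.3 and 4.71 CPM.

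Line 14 held the highest of 13 values for 14 of 36 members, namely Wnt2, Wnt4, Wnt5a, Wnt5b, Wnt11, Sfrp2, Sfrp4, Wif1, Fzd1, Fzd2, Fzd4, Lrp5, Nkd1 and Axin2, beside 15.2% of all genes. Without line 14, 10 of 35 tested members had a positive Log2FC under the Prkd3-/- label, against 24 of 36 with it; over all genes the shares were 52.9% and 56.9%. Line 14 was singled out by its high values, so this difference is a description. Line 14 also had the highest summed level of 5 chondrocyte markers, 2148 CPM against 76.5 to 897.5 CPM in the other libraries. That sum was mostly Col2a1, at 2015 CPM, with Sox9 at 131.1 and Col9a1 at 1.77 CPM. Matn1 was at 0.0626 CPM (4 counts), and Acan was at 0 in line 14 against 25.1 CPM in line 13. The summed macrophage level was lowest in line 14, at 10.2 CPM. The part of these cell types in the result was not tested. The lowest value fell in line 13 for 9 members, in line 15 for 9 and in WT line 3 for 8, beside 22.1%, 9.45% and 6.72% of genes.

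**Figure D5:**
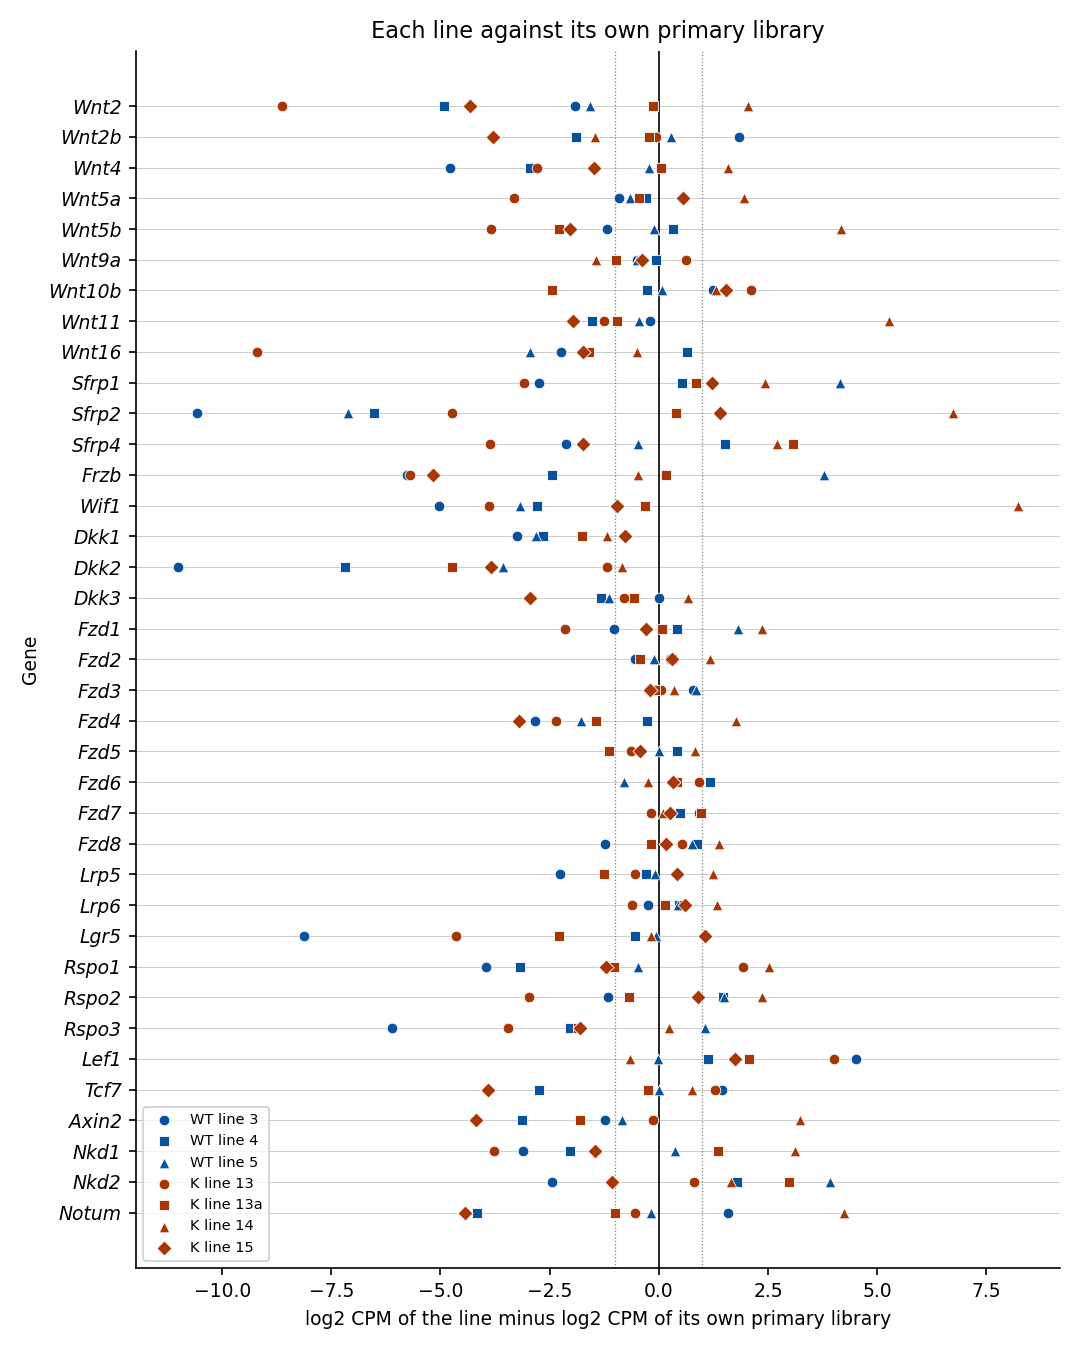
Log2 CPM of each immortalized line minus log2 CPM of the primary library of its clone (x axis) for the 37 Wnt genes (y axis). Blue symbols are WT lines and brown symbols lines labelled Prkd3-/- (K), dotted lines mark -1 and 1; points of line 14 (brown triangles) lie to the right for most genes and all 7 points of Dkk2 lie to the left of 0.

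Of 70 further pathway genes listed by role, 54 were tested in WT and 52 under the Prkd3-/- label. In WT edgeR called 1 of them, the R-spondin receptor gene Lgr6, which measured 10.6, 10.3 and 7.26 CPM in primary libraries and 1.14, 0.508 and 0.566 CPM in lines, with a Log2FC of -3.67 ± 0.39 and an adjusted p-value of 0.00681. With the clone as a block the adjusted p-value of Lgr6 in edgeR was 0.0360. It was 0.00244 to 0.0468 in the 6 edgeR fits that each left out a library. Over the 14 alternatives it ran from 5.41e-20 to 0.180. DESeq2 called 4, Lgr6, Wnt7b, Fzd10 and Apcdd1, all lower, and the shares called over all genes were 1.82% in edgeR and 4.08% in DESeq2. Of these, 2 rest on low counts. Wnt7b had 17, 27 and 20 counts in WT primary libraries and 1, 4 and 0 in WT lines. Fzd10 had 24, 37 and 10 counts and 0, 0 and 3. At an unadjusted p under 0.05 in edgeR, 5 of the 54 were higher and 12 lower in WT lines, beside 8.26% and 11.4% of all genes, and 0 were higher and 3 lower under the Prkd3-/- label, beside 2.22% and 4.34%, where none was called.

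Among genes of the shared machinery, Ctnnb1, which encodes beta-catenin, measured 704.5, 721.3 and 690.6 CPM in WT primary libraries and 686.6, 816.8 and 833.8 CPM in WT lines, and 723.2 to 824.2 CPM under the Prkd3-/- label, with adjusted p-values of 0.603 and 0.999 in edgeR. Wls, which carries Wnt proteins to the surface, measured 392.8, 397.7 and 367.6 CPM in WT primary libraries and 296.0, 485.8 and 242.9 CPM in WT lines (edgeR adjusted p-value 0.763). Porcn, which attaches their lipid, measured 4.36, 4.57 and 5.11 and 3.08, 4.72 and 9.88 CPM (edgeR adjusted p-value 0.722). Ror2, a receptor for Wnt5a, measured 46.9, 48.6 and 51.5 CPM in WT primary libraries and 28.0, 44.7 and 33.1 CPM in WT lines, and Rnf43, which removes frizzled receptors, measured 2.91, 3.20 and 3.08 and 0.209, 1.42 and 1.09 CPM. Both were lower in every WT line, with adjusted p-values of 0.226 and 0.212 in edgeR.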

How the data were processed

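RNA was sequenced from 13 MEF libraries after poly-A selection. The authors mapped read pairs to mm10 with STAR 2.7.10a, used SAMtools 1.18 and FastQC 0.12.0, and deposited raw counts per Ensembl release 102 gene from featureCounts (Subread 2.0.6) in 2 tables. The file headers show that counting ignored strand and let a read pair count for each gene it overlapped; for the table labelled Prkd3-/- the steps are not given in the sources used here beyond the processing notes.

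The members and gene lists were chosen with earlier results of these data known. Log2FC is immortalized minus primary. The states were compared within each genotype by the quasi-likelihood test of edgeR 4.0.16 (TMM, low-count filter, robust) under R 4.3.3, with Benjamini-Hochberg adjustment over all genes tested, called at an adjusted p under 0.01 and |Log2FC| of at least 1. The difference between genotypes was an interaction over 13 libraries, called at an adjusted p under 0.05. The SE is the Log2FC divided by the square root of F. Genes given with every value are those with an unadjusted p under 0.05, those called under an alternative, and members with wide ranges, the last chosen after their values were seen. Alternatives were DESeq2 1.42.0, limma 3.58.1, other scalings and filters, a block by clone and each library left out. Another alternative summed the counts of lines 13 and 13a. The pairing comes from the clone numbers in the sample names alone. Correlations of deviations of same-numbered WT libraries were -0.037, 0.038 and -0.049. For lines 13, 13a, 14 and 15 with their own primary libraries they were 0.16, -0.30, 0.09 and 0.03. Line 13a had 0.35 with primary library 14, and line 13 had 0.32 with primary library 15, so these values do not bear the pairing out. The fits were tested on simulated data.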

Additional observations from a re-analysis of the deposited data

Results flagged for a closer look

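The 4 lines labelled Prkd3-/- were examined in 37 groups, 1 per member. In 6 groups a value was separated from the other 3 by more of the range than Dixon's 95% limit for 4 values allows. That limit flags about 1 group in 20 by chance where values are normal and groups independent. Here the values were CPM on a linear scale, all 6 were highest values, and the groups share the same 4 libraries. The rate therefore does not apply, and the 6 are a description. Of the 6, 4 were the highest values of line 14: Wnt5b at 35.4 CPM, Wnt11 at 42.7 CPM, Sfrp1 at 1122 CPM and Wif1 at 29.2 CPM. Dkk2 was highest in line 13, at 55.3 CPM. Dkk1 in line 15, at 0.0270 CPM, rests on 2 counts, under the floor of 3. The groups of 3 libraries were not examined in this way.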

How the results depend on the processing

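In WT the number of genes called was 361, and it was 1361 with DESeq2, 198 in limma with a weight per state, 868 at an adjusted p-value under 0.05, 0 in the joint fit and 0 with the replicate block; leaving out each library gave 48 to 743. The number of Wnt genes called in WT was 0, with 2 in DESeq2. At an adjusted p-value under 0.05 it was 2 in edgeR and 6 in DESeq2. With each library left out edgeR called 0 to 4. These were Sfrp2, Wif1, Dkk3 and Rspo2 without line 3, Wnt16 without line 4 and Rspo1 without line 5. Over all alternatives the adjusted p-values of these last 4 ranged from 0.00323 to 0.863, 0.00128 to 0.816, 0.00657 to 0.943 and 0.00512 to 0.739. Under the Prkd3-/- label DESeq2 called 190 genes and the joint fit 1, and the difference between genotypes had 37 genes in DESeq2 and 0 to 2 with each library left out, 2 without line 14; the single Wnt gene among the 37 was Sfrp2. The block, whose pairs are the clones, thus ended every call in WT, Lgr6 included, and took the adjusted p-values of Sfrp2, Wif1 and Fzd7 above 0.05; under the Prkd3-/- label and for the difference there was no edgeR call to end. The Log2FC of Wif1 under the Prkd3-/- label reversed when a library was left out, ranging from -0.67 without line 14 to 4.73. The sign of the Log2FC changed without at least 1 library for 13 of 36 members in WT, beside 34.5% of genes, and for 18 of 36 under the Prkd3-/- label, beside 41% of genes; Frzb and Sfrp1 were among the former and Wnt5a, Wnt11 and Fzd1 among the latter. Scaling by library size alone, added after seeing the data for the overlap of states, moved the median Log2FC of all WT genes from 0.04 to -0.10 and gave 15 WT members with no overlap in place of 14, Dkk3 being added, and 1 in place of 0, Wnt2b, under the Prkd3-/- label. The causes were not tested. At these depths Wif1 and Dkk1 lie near 3 counts in several libraries.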
